A study of Mus musculus with 6 samples.

Results

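Nuclear receptors are transcription factors that bind DNA as monomers, homodimers or heterodimers, and most change their activity when a small lipid-soluble ligand such as a steroid, a retinoid, a vitamin or a fatty acid enters their ligand-binding pocket. Retinoid X receptors are the shared partner of the retinoic acid, vitamin D, PPAR (peroxisome proliferator-activated) and liver X receptors, whereas the corticosteroid receptors are held by chaperones until ligand arrives. In the pituitary, glucocorticoids and retinoic acid are known regulators of growth hormone and prolactin genes. The 31 genes described here are the nuclear receptors other than those for oestrogen and thyroid hormone that were named for this account, and they were found by gene symbol in a table of 22869 genes.

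The study sequenced polyadenylated RNA from the pituitaries of untreated mice, all females of the CD1 x C57BL/6 hybrid strain, at an age of 6 to 8 weeks. Fluorescence-activated cell sorting had separated them into somatotropes, which secrete growth hormone, and lactotropes, which secrete prolactin, with 3 biological replicates of each. Values are FPKM, fragment numbers corrected for how long the transcript is and how many fragments the library holds, so levels of different genes can be set side by side. The marker or gate of the sort, the number of mice behind a replicate and the read depth were not found in the labels, and the tests measure the spread between these samples.

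The libraries differed in quality as well as in cell type. Gh, the growth hormone gene, was higher in each somatotrope library (19384 to 84909 FPKM) than in any lactotrope library (3954 to 7623 FPKM), and Prl, the prolactin gene, was higher in each lactotrope library (25171 to 195325 FPKM) than in any somatotrope library (8709 to 24481 FPKM), as the labels say. Lactotrope 3 listed 14.9% of the 11642 genes tested (mean over the libraries at or above 1 FPKM) at 0, against 0.232% to 2.95% in the other libraries, so a 0 there is given as listed and not as absence. Same-numbered libraries of the 2 cell types deviated together from their group means, so they are treated below as pairs 1 to 3. This pairing rests on the replicate numbers in the titles and on these same values. Whether same-numbered libraries share mice or a batch was not found in the labels. Of 6 somatotrope markers 5 were tested. In all 3 pairs 4 were higher in somatotropes (22.9% of all genes) and 1 in lactotropes (11.2% of all genes). The remaining marker was listed at 0 in all libraries. Of 6 lactotrope markers 6 were tested, and all of them were higher in lactotropes in all 3 pairs. The margin for Prl was narrow, with 24481 FPKM in somatotrope 3 against 25171 FPKM in lactotrope 2. Transcripts of other cells were present too. Pomc, a marker of corticotropes and melanotropes, had 93.6, 1209 and 5758 FPKM in somatotropes 1 to 3. In lactotropes 1 to 3 it had 853, 553 and 425 FPKM. Hba-a1, an erythroid marker, reached 1910 FPKM in somatotrope 3 and 1571 FPKM in lactotrope 3.

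Of the 31 receptors, 16 reached a mean of 1 FPKM over the 6 libraries and were tested, and 15 did not. Closest to this limit were Rarg at 1.03 and Nr2f2 at 1.04 FPKM on the upper side and Vdr at 0.697 and Esrrg at 0.652 FPKM on the lower side. Several of them passed this limit only with replicate 1 libraries included. Without both of these, 11 receptors reached a mean of 1 FPKM, and those lost were Nr3c2, Nr2c1, Rorb, Pparg and Nr2f2. Pparg was not highest in replicate 1 of both cell types, as lactotrope 1 lay below lactotrope 2 (0.673 against 1.87 FPKM). Nr3c1, Nr1h2 and Nr2f6 were the 3 receptors at or above 1 FPKM in all 6 libraries, and 7 others were so in 5 of 6. The number of receptors at or above 1 FPKM was 18, 14 and 10 in the somatotrope libraries in order and 16, 10 and 6 in the lactotrope libraries.

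Among the 16, the receptors with the highest means were Nr1h2 (liver X receptor beta), Nr3c1 (the glucocorticoid receptor), Rxrb (retinoid X receptor beta) and Nr2f6 (an orphan receptor of the COUP-TF group), at 15.2, 9.59, 8.26 and 7.38 FPKM. Together they made up 42.9% to 65.0% of the summed FPKM of all 31 receptors, depending on the library. That sum was 130, 93.4 and 52.5 FPKM in somatotropes 1 to 3 and 91.2, 63.5 and 22.3 FPKM in lactotropes 1 to 3, larger in the somatotrope library of each pair by 1.42, 1.47 and 2.35 times. Expressed as a percentage of all FPKM other than Gh and Prl, the ratios were 1.46, 1.55 and 1.98. Median pair differences on the log2 scale were 0.23, 0.35 and 0.76 for the 16 receptors, against 0.003, 0.12 and 0.36 over all genes. The largest ratio was that of pair 3, which holds lactotrope 3 with its 14.9% of tested genes at 0. For 15 of 15 neighbours in the order of means the ranges over the 6 libraries overlapped, so that order is not firm.

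**Figure D1:**
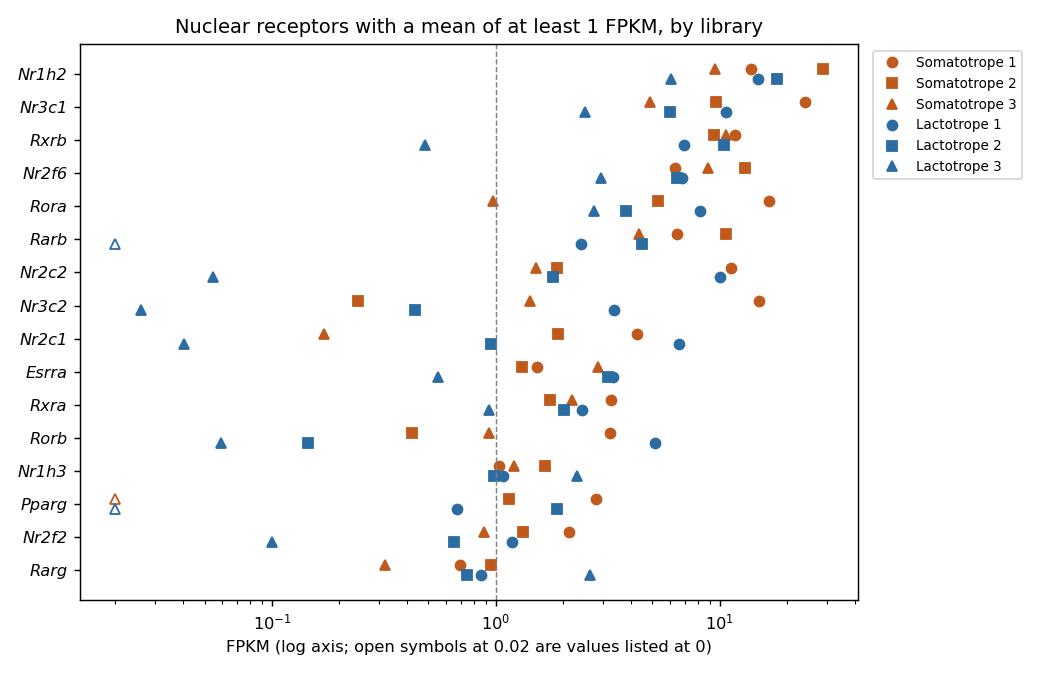
FPKM on a log axis for the 16 receptors with a mean of at least 1 FPKM, ordered by mean, with 1 symbol per library and a dashed line at 1 FPKM; open symbols mark values listed at 0. Somatotrope and lactotrope symbols overlap in every row, and lactotrope 3 is the lowest library for 12 of the 16, among them Rxrb at 0.481 FPKM.

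No receptor passed the test between the cell types. With limma on log2(FPKM + 1) and Benjamini-Hochberg adjustment over 11642 genes, 0 of 16 receptors were called at an adjusted p of 0.05, where 0.0% of all genes were called, and the smallest adjusted p of a receptor was 1.00. Unadjusted, 0 of 16 had a p under 0.05, against 0.962% of all genes. With the replicate number as a block, limma again called 0 receptors and 0.0% of all genes, the smallest adjusted p of a receptor was 0.312, and 2 receptors, Rarb and Nr3c1, had an unadjusted p under 0.05, a share of 12.5% against 10.9% of all genes. For 0 of 16 receptors did the 3 libraries of one cell type all lie above those of the other, against 2.51% of all genes toward somatotropes and 1.15% toward lactotropes. The intervals are wide, so these results do not show that the receptors are alike in both cell types.

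In direction, 13 of 16 log2 differences (somatotrope minus lactotrope) were above 0, which is 81.2% against 64.8% of all genes tested. Their median was 0.34 against 0.18 over all genes, and after median-ratio scaling of the libraries it was 0.23 against 0.04. Without somatotrope 1 the median of the receptors was -0.003, and without lactotrope 3 it was -0.002. In all 3 pairs, 4 receptors were higher in somatotropes, namely Nr3c1, Rarb, Nr2c2 and Nr2f2 (25.0% against 22.9% of all genes), and 0 of 16 were higher in lactotropes (11.2% of all genes). The somatotrope share is near the background. After median-ratio scaling the count was 2, Nr3c1 and Rarb, and in pairs 2 and 3 alone it was 8 (40.5% of all genes).

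**Figure D2:**
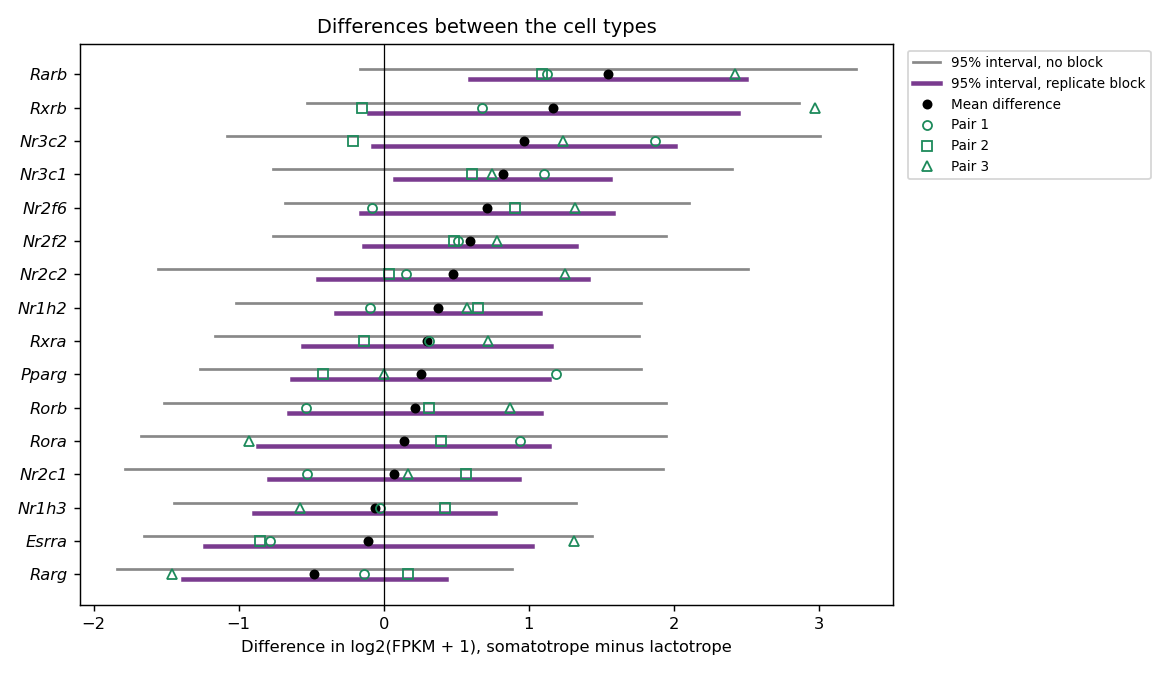
Difference in log2(FPKM + 1), somatotrope minus lactotrope, for each of the 16 tested receptors: the mean (black), the 3 pairs (green symbols) and limma's 95% intervals without a block (grey) and with the replicate number as a block (purple). Grey intervals cross 0 for each receptor, and the purple intervals of Rarb (0.59 to 2.498) and Nr3c1 (0.08 to 1.56), which are not adjusted for the number of genes, do not.

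Retinoic acid receptors bind DNA together with a retinoid X receptor and are switched on by all-trans retinoic acid. Rarb, which encodes retinoic acid receptor beta, is itself a classical retinoic acid target through a repeated element just before its start. The promoter is shown because Rarb had the largest difference of the tested receptors. These are the 250 bases before the RefSeq start, read on the minus strand of chr14:16575477-16575726 (GRCm38.p6), with the match to the repeated element in capitals.

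Rarb: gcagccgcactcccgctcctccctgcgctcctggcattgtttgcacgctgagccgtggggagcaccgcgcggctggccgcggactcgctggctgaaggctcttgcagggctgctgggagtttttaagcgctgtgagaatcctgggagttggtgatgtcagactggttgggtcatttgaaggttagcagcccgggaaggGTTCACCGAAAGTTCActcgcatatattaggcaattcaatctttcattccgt

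The letters searched were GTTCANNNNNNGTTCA on both strands, and in Rarb they lie between 52 and 37 bases before the start. Of 32851 promoter windows of this length in the RefSeq table, 22 held them (0.067%), and of 48 windows of 30 of the receptors only that of Rarb did. This is a match of letters and not a measured binding site. The element was known from Rarb before the search, so the match there says nothing about these samples.

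Somatotropes 1 to 3 had 6.41, 10.7 and 4.35 FPKM of Rarb, and lactotropes 1 to 3 had 2.39, 4.49 and 0 FPKM as listed. The somatotrope library was the higher in every pair, by 1.13, 1.09 and 2.42 on the log2 scale, while somatotrope 3 lay just below lactotrope 2, so the groups overlapped. The log2 difference was 1.55 (SE 0.79, limma adjusted p = 1.00, and 0.312 with the block), and it was 0.84 without lactotrope 3 and 2.07 without lactotrope 2. In the mm9 coordinates of the table Rarb spans chromosome 14 from 17263354 to 17407724 on the minus strand, as 1 row.

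The other retinoic acid receptors were lower. Rarg, retinoic acid receptor gamma, had 0.692, 0.952 and 0.319 FPKM in somatotropes 1 to 3 and 0.861, 0.742 and 2.63 FPKM in lactotropes 1 to 3, with lactotrope 3 above all others. Its log2 difference was -0.48 (SE 0.63), -0.14 without lactotrope 3. Rara, retinoic acid receptor alpha, did not reach the mean of 1 FPKM and lay between a listed 0 and 0.906 FPKM. Of the summed FPKM of the 3 genes, Rarb made up 84.4%, 85.3% and 89.9% in the somatotrope libraries in order, and 57.5%, 75.9% and 0% in the lactotrope libraries. The somatotrope shares all lay above the lactotrope shares, also if lactotrope 3 is set aside, and the p of a two-sided exact permutation test was 0.1, which is the lowest possible with 3 libraries a side. This share was chosen after the values were seen, so its p does not count as support for a difference. The same permutation test was run on other ratios and shares with values in all 6 libraries. It gave 0.1 for Rarb over Rarg and 0.3 to 0.9 for the rest.

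In a list of 14 genes of the retinoic acid pathway and its targets, 9 were tested and limma called 0 of them with or without the block. In all 3 pairs 6 of the 9 were higher in somatotropes and 1 in lactotropes, where 22.9% and 11.2% of all genes were. The median log2 difference was 1.13, against 0.18 over all genes. This list and those below were chosen with earlier results of these data known. Their shares and medians are therefore a description and do not count as support. The 3 genes of the list with the smallest p are given here. Aldh1a1 and Aldh1a2 encode enzymes that oxidise retinal to retinoic acid. Aldh1a1 had 13.0, 57.5 and 24.7 FPKM in somatotropes 1 to 3 and 4.80, 15.9 and 0 FPKM as listed in lactotropes 1 to 3, and Aldh1a2 had 24.8, 55.2 and 67.7 against 17.0, 37.6 and 5.08 FPKM. Rdh10, which oxidises retinol, had 3.32, 10.9 and 4.13 against 1.78, 2.14 and 0 FPKM as listed, with each somatotrope library above each lactotrope library.

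Markers of pituitary stem and folliculostellate cells were higher in the same libraries. Of 9 listed markers, all were in the table and 7 were tested, 6 of them higher in somatotropes in all 3 pairs (22.9% of all genes). Their summed level ran from 264 to 2627 FPKM in somatotropes and from 146 to 753 FPKM in lactotropes. Somatotrope 2 had the highest sum, the highest Rarb and the highest Aldh1a1 of the 6 libraries, while Aldh1a2 was highest in somatotrope 3. The order differed elsewhere. Somatotrope 3 had a larger marker sum than somatotrope 1 (1163 against 264 FPKM) but less Rarb (4.35 against 6.41 FPKM). No marker of the list was at 0 in all libraries. The part of these cells in the level of Rarb was not tested. In bulk samples, fewer cells of a type and less RNA per cell cannot be told apart.

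Retinoid X receptors are the obligate partners in these heterodimers. Rxrb had 11.7, 9.37 and 10.6 FPKM in somatotropes 1 to 3, a spread of 10.5 ± 1.143 (SD, n = 3), and 6.92, 10.5 and 0.481 FPKM in lactotropes 1 to 3. The somatotrope libraries were close together and lactotrope 3 stood far below the rest. The log2 difference of 1.17 (SE 0.79, limma adjusted p = 1.00) was 0.27 without lactotrope 3. Rxra, retinoid X receptor alpha, lay between 1.75 and 3.26 FPKM in somatotropes and between 0.930 and 2.43 FPKM in lactotropes. The log2 difference was 0.30 (SE 0.68). Within a library Rxrb exceeded Rxra 2.84- to 5.36-fold, except in lactotrope 3, where the ratio was 0.517. The remaining paralogue, Rxrg, is not among the 31 but was on the list of other receptors, and it had 47.0, 6.43 and 2.80 FPKM in somatotropes 1 to 3 and 8.05, 2.21 and 3.14 FPKM in lactotropes 1 to 3, so it was above Rxrb in somatotrope 1, lactotrope 1 and lactotrope 3.

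Vdr, the vitamin D receptor, pairs with the same partners and did not reach the limit. It had 1.09, 0.915 and 0.002 FPKM in somatotropes 1 to 3 and 2.11, 0.062 and 0 FPKM as listed in lactotropes 1 to 3.

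**Figure D3:**
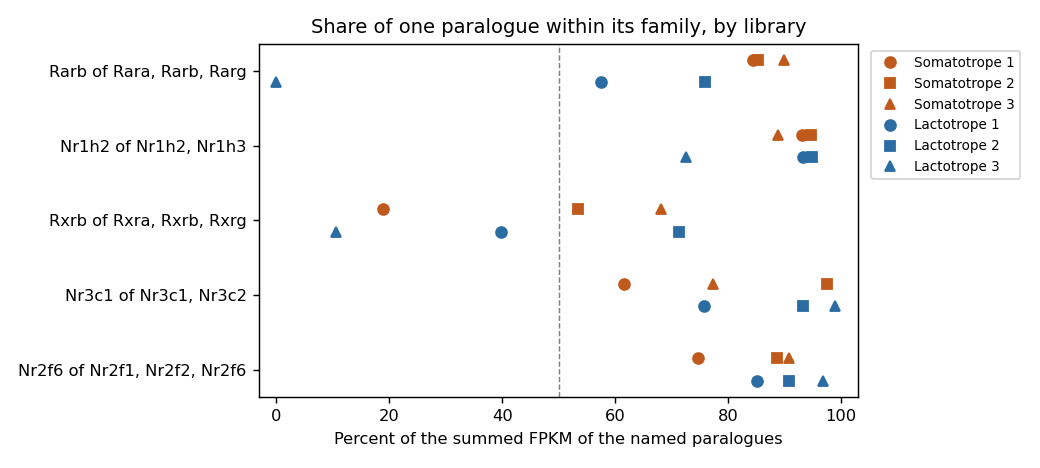
Percentage of the summed FPKM of the paralogues named on each row (Rxrg included) that comes from 1 of them, by library, with a dashed line at 50%. Nr1h2, Nr3c1 and Nr2f6 lie above 50% in all 6 libraries, Rarb in 5, with lactotrope 3 at 0%, and Rxrb in 3, with somatotrope 1 at 18.8% and lactotropes 1 and 3 at 39.8% and 10.6%.

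The corticosteroid receptors Nr3c1 and Nr3c2 bind glucocorticoids and mineralocorticoids. Nr3c1 had 24.0, 9.60 and 4.85 FPKM in somatotropes 1 to 3 and 10.6, 5.97 and 2.49 FPKM in lactotropes 1 to 3. Both cell types showed the same order of replicates, and the somatotrope library was higher in each pair by 1.11, 0.61 and 0.75 on the log2 scale. The log2 difference was 0.82 (SE 0.73, limma adjusted p = 1.00, and 0.422 with the block). It was 0.26 without somatotrope 1 and 0.36 without lactotrope 3.

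Nr3c2, the mineralocorticoid receptor, had 15.03, 0.241 and 1.42 FPKM in somatotropes 1 to 3 and 3.39, 0.436 and 0.026 FPKM in lactotropes 1 to 3. Replicate 1 was highest in both cell types, and pair 2 went the other way by -0.21. The log2 difference of 0.97 (SE 0.95) was -0.10 without somatotrope 1. Nr3c1 exceeded Nr3c2 in all 6 libraries, by 1.60 to 95.5 times.

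Of 11 genes for the chaperones and ligand gating of these receptors, 10 were tested and 0 were called, as were 0.0% of all genes. In all 3 pairs 3 were higher in somatotropes and 3 in lactotropes, where 22.9% and 11.2% of all genes were. Hsd11b1, the enzyme that regenerates active glucocorticoid inside cells, had 51.6, 521 and 124 FPKM in somatotropes 1 to 3 and 23.7, 99.6 and 16.4 FPKM in lactotropes 1 to 3. The log2 difference was 2.10 (SE 0.85, limma adjusted p = 1.00, and 0.230 with the block). Each pair had more of it in somatotropes, and its highest library was again somatotrope 2. Hsp90aa1, a chaperone, went the other way in all 3 pairs, with 28.9, 10.1 and 30.2 against 31.9, 29.3 and 82.3 FPKM.

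Of 14 listed genes known to be induced by glucocorticoids, 12 were tested and 0 were called. For 10 of the 12 the log2 difference was above 0, against 64.8% of all genes. In all 3 pairs 3 were higher in somatotropes and 1 in lactotropes, where 22.9% and 11.2% of all genes were. The median log2 difference was 0.33, against 0.18 over all genes. Klf9, a transcription factor, had 14.8, 6.49 and 9.03 FPKM in somatotropes and 7.26, 3.18 and 1.35 FPKM in lactotropes. Dusp1, a phosphatase that is also an immediate early gene, had 17.9, 34.7 and 231 FPKM in somatotropes and 113, 186 and 495 FPKM in lactotropes, and its log2 difference was -2.03 (SE 0.86, limma adjusted p = 1.00).

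Liver X receptors bind oxysterols and control cholesterol export. Nr1h2 had 13.8, 28.8 and 9.50 FPKM in somatotropes 1 to 3 and 14.8, 18.0 and 6.06 FPKM in lactotropes 1 to 3, and it was the highest of the 31 receptors in somatotrope 2 and in all 3 lactotropes. Both cell types had their highest value in replicate 2, and the log2 difference was 0.38 (SE 0.65, 95% interval -1.02 to 1.77). In mm9 Nr1h2 spans chromosome 7 from 51805003 to 51809293 on the minus strand.

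Nr1h3, liver X receptor alpha, which is known for its level in macrophages and liver, was lower and even. It had 1.03, 1.65 and 1.21 FPKM in somatotropes 1 to 3 and 1.07, 0.980 and 2.29 FPKM in lactotropes 1 to 3. The log2 difference was -0.06 (SE 0.64). Nr1h2 made up 72.6% to 94.8% of the sum of both. Markers of macrophages and other leukocytes were higher in lactotropes in all 3 pairs for 12 of 12 tested genes, where 11.2% of all genes were. Their sums were 298 to 6170 FPKM in somatotropes and 907 to 13622 FPKM in lactotropes. Their part in the level of Nr1h3 was not tested. Its bile acid relative Nr1h4 was at most 0.431 FPKM and was listed at 0 in 4 libraries.

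Of 10 listed liver X receptor targets, 9 were tested and 0 were called. In all 3 pairs 1 was higher in somatotropes and 2 in lactotropes, where 22.9% and 11.2% of all genes were. Apoe, a lipid carrier that macrophages also express, had 72.9, 1963 and 1298 FPKM in somatotropes and 328, 6030 and 2040 FPKM in lactotropes, the same order of libraries within each cell type as the leukocyte marker sums. Lpcat3, a phospholipid-remodelling enzyme, had 19.3, 22.6 and 12.7 against 18.4, 13.3 and 5.23 FPKM.

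The PPAR group senses fatty acids and was low throughout. Pparg, the regulator of fat cell formation, had 2.80, 1.145 and 0 FPKM as listed in somatotropes 1 to 3 and 0.673, 1.87 and 0 FPKM as listed in lactotropes 1 to 3, so pair 3 gave no value in either cell type. Its log2 difference was 0.25 (SE 0.71), and the sign turned without somatotrope 1 or without lactotrope 3. Ppara, which drives fatty acid oxidation, had 0.460, 0.343 and 0.263 FPKM in somatotropes 1 to 3 and 0.031, 0.243 and 0.001 FPKM in lactotropes 1 to 3. Each somatotrope value lay above each lactotrope value, but Ppara was under the limit and was not among the 16 tested. Ppard was at most 0.347 FPKM.

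Among 14 listed PPAR targets, 12 were tested and 0 were called. In all 3 pairs 6 were higher in somatotropes and 0 in lactotropes, where 22.9% and 11.2% of all genes were. The median log2 difference was 0.39, against 0.18 over all genes. Pdk4, which restrains pyruvate oxidation, had 7.64, 4.73 and 1.82 FPKM in somatotropes and 0.591, 1.75 and 0.190 FPKM in lactotropes. It was higher in somatotropes in each pair, with limma adjusted p = 1.00, and 0.290 with the block. Ucp2, with the highest mean of the list, had 36.7, 26.1 and 80.5 FPKM in somatotropes. In lactotropes it had 42.7, 78.9 and 75.3 FPKM, a log2 difference of -0.56 (SE 0.59) with pairs in both directions.

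Retinoic acid receptor-related orphan receptors (RORs) bind DNA as monomers and take part in the circadian clock. Rora had 16.6, 5.32 and 0.968 FPKM in somatotropes 1 to 3 and 8.18, 3.81 and 2.74 FPKM in lactotropes 1 to 3. The order of replicates was the same in both cell types, and pairs 1 and 2 were higher in somatotropes and pair 3 in lactotropes. Its log2 difference of 0.14 (SE 0.84) turned sign under both other scalings. Rorb, the paralogue known from retina and pineal gland, had 3.23, 0.423 and 0.932 FPKM against 5.13, 0.146 and 0.059 FPKM, with replicate 1 highest in each cell type.

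Oestrogen-related receptors have no known natural hormone and drive mitochondrial genes. Esrra had 1.52, 1.30 and 2.84 FPKM in somatotropes 1 to 3 and 3.34, 3.16 and 0.549 FPKM in lactotropes 1 to 3, higher in lactotropes in pairs 1 and 2 and in somatotropes in pair 3. The log2 difference was -0.11 (SE 0.72). Esrrg had 1.61 FPKM in the replicate 1 somatotropes and 2.12 FPKM in the replicate 1 lactotropes, and at most 0.125 FPKM in the other 4 libraries, and Esrrb was listed at 0 in all 6. Of 13 listed targets 12 were tested and 0 were called. In all 3 pairs 4 were higher in somatotropes and 1 in lactotropes, where 22.9% and 11.2% of all genes were.

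COUP-TF receptors are orphan receptors that mostly repress, and Nr2f2 is known from endothelial and mesenchymal cells. Nr2f6 had 6.32, 13.0 and 8.85 FPKM in somatotropes 1 to 3 and 6.75, 6.44 and 2.96 FPKM in lactotropes 1 to 3, with pair 1 nearly equal and pairs 2 and 3 higher in somatotropes by 0.91 and 1.32. Its log2 difference was 0.71 (SE 0.65), and 0.40 without lactotrope 3. Nr2f2 had 2.11, 1.32 and 0.889 FPKM against 1.18, 0.653 and 0.0996 FPKM, higher in somatotropes in each pair, a log2 difference of 0.59 (SE 0.63, limma adjusted p = 1.00). The 8 endothelial markers summed to 1.55 to 3.74 FPKM in somatotropes and 0 to 4.66 FPKM in lactotropes, and 0 of them reached a mean of 1 FPKM. The 9 fibroblast and mural markers, 2 of which were tested, summed to 29.0 to 59.4 FPKM in somatotropes and 21.8 to 71.9 FPKM in lactotropes. The part of these cells in the level of Nr2f2 was not tested. Nr2f1 was at most 0.355 FPKM in somatotropes and listed at 0 in all lactotropes.

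Nr2c1 and Nr2c2, the testicular orphan receptors, bind direct repeats as a heterodimer. Nr2c2 had 11.2, 1.87 and 1.504 FPKM in somatotropes 1 to 3 and 9.97, 1.80 and 0.055 FPKM in lactotropes 1 to 3, and Nr2c1 had 4.27, 1.90 and 0.170 against 6.59, 0.954 and 0.040 FPKM. In both cell types and for both genes replicate 1 was highest and replicate 3 lowest. The log2 differences were 0.48 (SE 0.94) and 0.07 (SE 0.86).

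**Figure D4:**
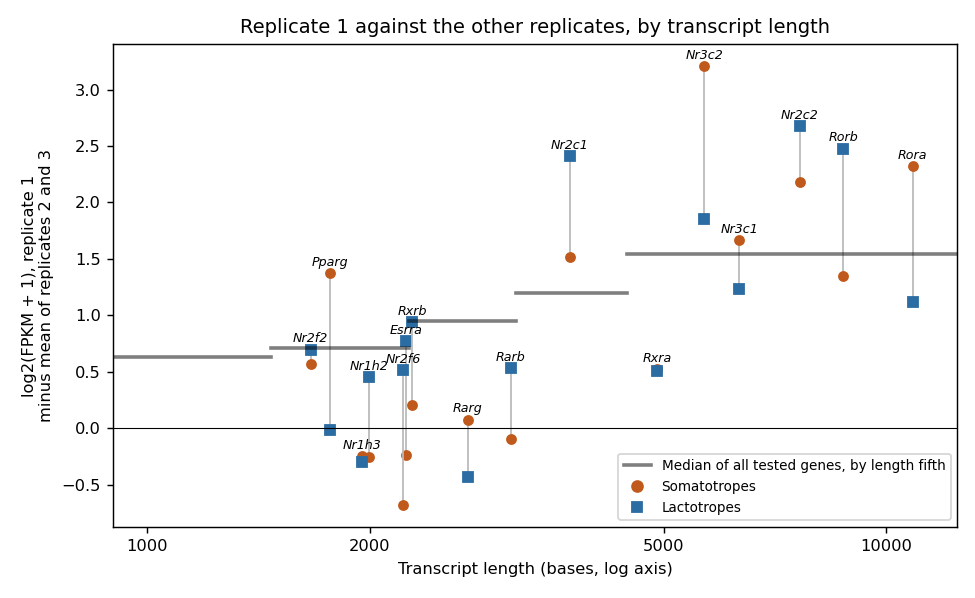
Difference in log2(FPKM + 1) between replicate 1 and the mean of replicates 2 and 3 within somatotropes (circles) and lactotropes (squares) against transcript length on a log axis for the 16 tested receptors, with bars at the median of all tested genes in 5 equal bins of length. The 5 receptors with the longest transcripts lie above 1 in both cell types, and Nr1h3 lies below 0 in both.

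The excess in replicate 1 was shared by a subset of the receptors. In both cell types at once, replicate 1 was the highest library for 8 of 16 (Nr3c1, Nr3c2, Rxra, Rora, Rorb, Nr2c1, Nr2c2 and Nr2f2), which is 50% against 63.1% of all genes tested. It was the lowest for 0 of 16, against 5.82%. The log2 excess of replicate 1, averaged over both cell types, was 2.53 for Nr3c2, 2.43 for Nr2c2, 1.96 for Nr2c1, 1.91 for Rorb, 1.72 for Rora and 1.45 for Nr3c1, whose transcripts are 5675, 7647, 3732, 8759, 10878 and 6327 bases long. For Nr1h2, Nr1h3 and Nr2f6, with transcripts of 1999, 1955 and 2218 bases, it was 0.10, -0.28 and -0.08. The shortest transcripts, those of Nr2f2 (1664 bases) and Pparg (1767 bases), had an excess of 0.63 and 0.68, and Rxra, at 4905 bases, had 0.52. Spearman's rho between length and excess was 0.615 over the 16 receptors and 0.318 over 11433 genes, as a description across genes that share the same 6 libraries. Over all genes the median excess went from 0.63 in the shortest of 5 equal bins of length to 1.55 in the longest.

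Receptors under the limit were mostly at or near 0. Of the 15, 2 (Esrrb and Nr0b2, a repressor of bile acid synthesis) were listed at 0 in every library, and 4 (Vdr, Esrrg, Nr6a1 and Nr0b1) reached 1 FPKM in at least 1 library. Nr6a1, the germ cell nuclear factor, had 1.55, 0.043 and 0.153 FPKM in somatotropes 1 to 3 and 0.985, 0.310 and 0.843 FPKM in lactotropes 1 to 3. Nr2e1, Nr2e3, Hnf4a and Nr5a2, known from neural stem cells, photoreceptors, liver and early embryo, were at most 0.222 FPKM and were listed at 0 in at least 4 libraries.

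Nr0b1 (Dax1), which lacks the usual DNA-binding domain and represses Nr5a1 (SF-1) in gonadotropes and the adrenal gland, had 0.133, 1.28 and 0.997 FPKM in somatotropes 1 to 3 and 0.158, 0 and 0 FPKM as listed in lactotropes 1 to 3. It was above its lactotrope levels in somatotropes 2 and 3 only. Nr5a1 itself had 0.719, 1.35 and 1.57 FPKM in somatotropes 1 to 3 and 1.75, 0.111 and 0 FPKM as listed in lactotropes 1 to 3. The 5 gonadotrope markers, Nr5a1 among them, summed to 309 to 1780 FPKM in somatotropes and 134 to 753 FPKM in lactotropes, most of it Cga, and their part in the level of Nr0b1 was not tested. The 2 differed in lactotrope 1, where Nr5a1 had its highest value and Nr0b1 did not. The Nr0b1 promoter is shown because Nr0b1 is a known partner of Nr5a1. It holds the 9 letters TCGAGGTCA, a form of the site that SF-1 and the oestrogen-related receptors bind, in capitals in the 250 bases before the RefSeq start on the plus strand of chrX:86191525-86191774 (GRCm38.p6).

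Nr0b1: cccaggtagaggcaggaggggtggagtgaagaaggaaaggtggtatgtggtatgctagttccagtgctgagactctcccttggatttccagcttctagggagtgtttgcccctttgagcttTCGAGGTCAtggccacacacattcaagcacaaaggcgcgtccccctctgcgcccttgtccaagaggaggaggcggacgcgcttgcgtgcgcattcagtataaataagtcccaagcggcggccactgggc

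The letters searched were TCNAGGTCA on both strands, and they lie 129 to 121 bases before the start. Of the 32851 windows, 356 held them (1.08%), and of the 48 windows of the receptors that of Nr0b1 did. The shorter letters AGGTCA were also searched and lay in 8 of the 48 windows, against 14.0% of all windows. A form of the glucocorticoid element lay in 0 of the 48, against 0.387% of all windows. These too are matches of letters and not measured binding sites.

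Co-regulators that nuclear receptors recruit were also read from a list. Of 16, 14 were tested and 0 were called. In all 3 pairs 2 were higher in somatotropes and 1 in lactotropes, where 22.9% and 11.2% of all genes were. The median log2 difference was 0.08, against 0.18 over all genes. Ncoa1, a co-activator, had 17.9, 3.86 and 3.38 FPKM in somatotropes and 8.91, 3.79 and 0.649 FPKM in lactotropes, and Hdac3, the deacetylase of the co-repressor complex, had the highest mean of the list, with 41.2, 48.1 and 35.2 against 52.9, 31.1 and 15.02 FPKM. Of 17 other nuclear receptors, 10 were tested and 0 were called, as were 0.0% of all genes. In all 3 pairs 2 were higher in somatotropes and 3 in lactotropes. The highest of the 17 was Nr4a1, an immediate early gene. It had 24.0, 18.0 and 33.7 FPKM in somatotropes and 113, 24.9 and 53.4 FPKM in lactotropes. That was above the highest of the 31 described here in 4 of 6 libraries.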

How the data were processed

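RNA was sequenced from FACS-sorted somatotropes and lactotropes, 3 replicates each. TopHat, edgeR, bcl2fastq 2.17.1.14 and build mm9 are named in the submitters' processing notes. The counting step and the depth are not given in the sources used here. One row per RefSeq transcript (30399 rows) makes up the deposited FPKM table, and each library column was matched by the description of its sample. The 889 rows without a symbol were left out, and each of 22869 genes took its row of highest mean (13 of the 31 receptors had more than 1 row). FPKM depends on the whole library, so the abundant hormone transcripts lower all other values.

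The 11642 genes whose mean reached 1 FPKM were tested as log2(FPKM + 1), somatotrope minus lactotrope, with limma 3.58.1 in R 4.3.3 (intensity trend, Benjamini-Hochberg adjustment at 0.05 over all genes). On this scale, changes of low genes come out too small. Replicate numbers come from the titles, and same-numbered libraries deviated together (correlations over genes of 0.763, 0.613 and 0.341), so a fit blocked on replicate number is quoted where it bears on a call. The code was tested on simulated data. Transcript lengths are from GENCODE M21, matched by RefSeq identifier, and promoters are from RefSeq (GRCm38.p6). All 31 receptors are named. Of each gene list the 3 genes with the smallest p and the 1 with the highest mean could be, and of each marker list the most abundant. Examples of those are given, and Nr5a1 and Rxrg were set beside receptors described. The receptors and lists were chosen with earlier results of these data known.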

Additional observations from a re-analysis of the deposited data

How the results depend on the processing

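Calls did not depend on the processing: limma called 0 receptors under each of 15 alternatives (replicate block, pseudocount 0.1, no filter on low values, median-ratio scaling, quantile normalization, summed rows, no intensity trend, each library left out, and, chosen after seeing the data, both replicate 1 libraries left out with and without the block), with a smallest adjusted p of 0.312, that of Rarb with the replicate block. Over all genes 0 to 3 were called with 1 library left out, the 3 without somatotrope 1. Depth is unknown, so a low receptor cannot be told from one sampled by few fragments.

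The median log2 difference of the tested receptors was 0.63 with a pseudocount of 0.1, and ran from -0.0031 (without somatotrope 1) to 0.85 (without lactotrope 1) with 1 library left out. The count higher in somatotropes in all 3 pairs was 2 with median-ratio scaling; with both replicate 1 libraries left out, 8 were higher in both remaining pairs, as were 40.5% of all genes. The count higher in lactotropes in all 3 pairs was 1 with no filter and 1 with summed rows. Between 14 and 16 receptors reached a mean of 1 FPKM with 1 library left out. With summed rows in place of the row of highest mean 19 did, and with median-ratio scaling 14 did.

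Of 268 gene values over the alternatives, 236 kept their direction and 32 turned it. With 1 library left out, the log2 difference ran from -0.59 to 0.15 for Esrra, -0.10 to 1.74 for Nr3c2, -0.20 to 0.76 for Pparg, -0.64 to 0.94 for Rora, -0.24 to 1.04 for Rorb, -0.056 to 0.71 for Nr1h2, -0.20 to 0.17 for Nr1h3, -0.56 to 0.88 for Nr2c1 and -0.32 to 1.37 for Nr2c2. With both replicate 1 libraries left out, with or without the replicate block, it was 0.23 for Esrra, -0.21 for Pparg and -0.27 for Rora. With quantile normalization it was -0.011 for Pparg, -0.050 for Rora, -0.048 for Rorb and -0.17 for Nr2c1, and with median-ratio scaling -0.059 for Rora. The cause was not tested. The replicate block changed no call.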
